A study of Homo sapiens with 38 samples.

Results

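The expression of 10 genes was described across RNA-seq libraries of neuroblastoma cell lines: HMOX1, NQO1, GCLC, GCLM, TXNRD1, SRXN1, FTH1, FTL, TFRC and SLC40A1. They were chosen by name, with earlier results of these data known, as targets of the transcription factor NRF2 and genes of iron handling. All 10 were listed in every file, among 50652 gene symbols in the BE2C files and 50778 in the others. HMOX1 and TFRC moved most in BE2C cells given GSK-J4, and NQO1 was the member called lower in each of the 4 lines given palbociclib.

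BE2C is a neuroblastoma line with amplified MYCN. Its cells received GSK-J4 at 2.5 µM for 0 h, 24 h or 48 h (2 libraries each). GSK-J4 is an ester that cells convert to GSK-J1, an inhibitor of the histone H3K27 demethylases KDM6A and KDM6B. The paper also reports some effect of GSK-J1 on KDM5A. No control kept for 24 h or 48 h without the compound is named, so time in culture and compound cannot be told apart. In a separate experiment BE2C cells were transfected for 72 h with a control siRNA (siCtrl, 2 libraries) or with 1 of 3 siRNAs named siKDM6B N1, N2 and N33. The 2 files of each of these siRNAs carry 1 number, which was read as a file number, so each was taken as 1 library. It could be a replicate number instead. CHLA15 and CHLA20 cells received palbociclib, an inhibitor of the cell cycle kinases CDK4 and CDK6, at 0.3 µM, and NB1643 and NB1691 cells at 3 µM, for 72 h beside a control (each condition of each line with 2 libraries). The sample notes give RPMI medium for BE2C and DMEM for the other lines, whereas the study's methods name RPMI for BE2C, CHLA15, CHLA20 and NB1691, so whether the medium differed is not settled. Dose and line differ together between the 2 pairs of palbociclib lines. The sample notes describe cultured cells but name xenograft tissue for RNA extraction, and nothing in them says whether replicates were separate cultures, so p-values measure the spread between these libraries, which may be technical.

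Libraries held 36186567 to 93011010 counts on genes. All 10 markers of sympathetic neuroblasts were detected in every group, with a summed level of 3021 to 3716 CPM (CPM being counts scaled to library size, here after TMM normalization) in CHLA15 and CHLA20 and 619.8 to 878.9 CPM in NB1691. NB1691 stood apart: 6 fibroblast markers summed to 16457 to 22144 CPM there and to 42.9 to 395 CPM in the other palbociclib lines, led by COL1A1, which reached 19850 CPM in NB1691, and 6 leukocyte markers summed to 20.9 to 21.3 CPM there and to 0.123 to 0.679 CPM in the other palbociclib lines. LYZ, lysozyme, made up 20.1 to 20.6 CPM of that sum in NB1691, where PTPRC, the common leukocyte antigen, was at or under 0.544 CPM. Haemoglobin beta (HBB), an erythroid marker, was at 8.48 CPM in 1 GSK-J4 48 h library, 13.4 CPM in 1 NB1643 control library and 3.71 CPM in 1 NB1691 palbociclib library, and at or under 0.0810 CPM in the other library of each of those groups. The part of these markers in the results was not tested.

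NRF2 is held low by KEAP1, which passes it to degradation. When electrophiles or oxidants modify KEAP1, NRF2 accumulates, pairs with a small MAF protein and binds antioxidant response elements near its targets. BACH1 competes for the same elements at HMOX1 and is released by haem. HMOX1 is haem oxygenase, which opens haem and frees its iron. NQO1 reduces quinones, GCLC and GCLM are the catalytic and modifier subunits of the enzyme that limits glutathione synthesis, TXNRD1 is thioredoxin reductase and SRXN1 repairs oxidised peroxiredoxins. FTH1 and FTL form the ferritin shell that stores iron, TFRC is the transferrin receptor that brings iron in and SLC40A1, ferroportin, is the iron exporter. The iron response proteins IRP1 and IRP2 bind a hairpin, the iron response element, when cell iron is low. There they block translation from the 5′UTR of FTH1, FTL and SLC40A1 and protect TFRC mRNA from decay through its 3′UTR.

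The elements of both systems are shown because they are the sequences through which NRF2, BACH1 and the iron response proteins act. A strict antioxidant response element, TGACTCAGC on either strand, was searched in the 10000 bases before the start of the main (canonical) transcript of 18286 genes of the GRCh37 genome, of which 12.9% held at least 1. It was found for HMOX1, NQO1, GCLC, FTH1 and FTL. HMOX1 held 4, and 0.00547% of the genes, which is HMOX1 alone, held as many: 3 lay together at -9077, -9019 and -8990 bases from that start, which for HMOX1 is chr22:35777089, and 1 lay at -3940. The element lay at -455 bases for NQO1 (start chr16:69760463), -3156 for GCLC (chr6:53409899), -4417 for FTH1 (chr11:61735106) and -1367 for FTL (chr19:49468566). The annotated span of HMOX1, NQO1 and GCLC, given with the values of each, begins further upstream because of other transcripts, and the GCLC element lies inside it. The looser form TGACNNNGC, which includes the strict one, was found within 250 bases before and 50 after the start of GCLM (1 match) and TXNRD1 (2 matches), as for 14.0% of genes. Each line gives 33 bases of the gene's own strand, with the 9 bases of the match in capitals:
HMOX1, chr22:35768000-35768032: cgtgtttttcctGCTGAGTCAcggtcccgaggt
HMOX1, chr22:35768058-35768090: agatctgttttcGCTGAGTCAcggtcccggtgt
HMOX1, chr22:35768087-35768119: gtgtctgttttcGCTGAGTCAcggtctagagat
HMOX1, chr22:35773137-35773169: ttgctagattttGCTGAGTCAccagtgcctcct
NQO1, chr16:69760898-69760930: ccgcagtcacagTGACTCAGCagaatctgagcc
GCLC, chr6:53413035-53413067: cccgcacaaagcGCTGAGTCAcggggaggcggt
FTH1, chr11:61739503-61739535: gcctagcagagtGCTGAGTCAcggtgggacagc
FTL, chr19:49467187-49467219: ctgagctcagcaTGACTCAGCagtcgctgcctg

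An iron response element was searched as an unpaired C, 5 bases, the loop start CAGTG, 1 further loop base and 5 bases that pair with the first 5. It was present in the 5′UTR of 18 of 17984 coding transcripts (0.1%), FTH1, FTL and SLC40A1 among them, with 1 each. In 3′UTRs it was present in 116 of 17999 transcripts (0.644%), and TFRC was the only transcript with 3 or more, holding 4. The 30 bases around those of FTL, SLC40A1 and TFRC are given on the gene's strand with the CAGTG of the loop in capitals:
FTL 5′UTR, chr19:49468592-49468621: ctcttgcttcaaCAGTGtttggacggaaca
SLC40A1 5′UTR, chr2:190445386-190445415: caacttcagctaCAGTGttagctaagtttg
TFRC 3′UTR, chr3:195777333-195777362: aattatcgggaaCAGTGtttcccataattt
TFRC 3′UTR, chr3:195777380-195777409: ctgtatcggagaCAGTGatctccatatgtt
TFRC 3′UTR, chr3:195777445-195777474: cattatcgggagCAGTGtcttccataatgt
TFRC 3′UTR, chr3:195777849-195777878: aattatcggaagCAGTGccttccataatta
A match is a likeness of letters and folding rule only, and binding was not measured here.

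Compared per length, as CPM per kilobase of the main transcript, FTL was the most abundant member in 13 of 15 groups and FTH1 in both groups of NB1691. SRXN1 was the lowest in all 15, between 0.0109 and 0.210. In BE2C at 0 h FTL stood at 624, FTH1 at 134, TFRC at 126, TXNRD1 at 116, GCLC at 13.3, NQO1 at 7.71, GCLM at 3.05, HMOX1 at 0.976 and SLC40A1 at 0.703 CPM per kilobase. TFRC ranked higher in BE2C than in the other lines, above TXNRD1 in every BE2C group and below it in every group of the other 4 lines. Of the main SRXN1 transcript (chr20:627259-633844), 90.7% is shared with a second gene model on the same strand in GENCODE 44. That model is not listed in the files, and whether it affected the counting was not tested. Of the FTH1 transcript 73.2% lies opposite the gene BEST1, and the strand setting of the counting is not given. Reads there may have been left out as ambiguous, so the rank of FTH1 beside FTL is not secure. SRXN1 had at most 7 counts in a BE2C library, and it passed the filter on low counts only in the palbociclib libraries.

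GSK-J4 was followed by a large and rising increase of HMOX1 and TFRC and by small changes of the other members. At 24 h 3 of 9 tested members were higher and 4 lower, while 27.3% of all 17734 genes tested were called higher and 28.0% lower. At 48 h 5 were higher and 2 lower, against 37.1% and 34.4% of all genes. These counts are near the background, so the sizes carry the description. At either time HMOX1 and TFRC were the members whose called log2 fold change was above 0.5 in size. Of all genes 3855 at 24 h and 7487 at 48 h were called past that size. Over the same times the summed neuroblast markers went from 4127 and 4180 CPM to 4126 and 4140 CPM and then 3255 and 3258 CPM, and the summed fibroblast markers from 103 and 105 CPM to 32.3 and 34.1 CPM and then 24.5 and 25.4 CPM. PDGFRB made up most of the fibroblast sum, and the collagen genes COL1A1 and COL1A2 were at or under 0.422 CPM in all 6 libraries. The part of these shifts in the results was not tested. Calls are from edgeR's quasi-likelihood test with Benjamini-Hochberg adjusted p under 0.05 throughout.

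HMOX1 (chr22:35776354-35790207) was at 1.77 and 1.27 CPM at 0 h, 5.96 and 5.89 CPM at 24 h and 25.6 and 27.1 CPM at 48 h. The 3 groups did not overlap, and each later time lay above the one before. It was 3.90-fold higher at 24 h (log2 fold change 1.96 ± 0.14 SE, adjusted p = 2.51e-16) and 17.3-fold higher at 48 h (4.11 ± 0.11, adjusted p = 1.32e-33), with a further 2.15 ± 0.08 on the log2 scale between 24 h and 48 h (adjusted p = 1.07e-27). Over all alternatives the 48 h value stayed between 3.89 and 4.37. Per length it passed from rank 8 of the 10 members at 0 h to rank 5 at 48 h, at 16.9 CPM per kilobase beside 14.0 for GCLC.

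TFRC (chr3:195739382-195809024) was at 639 and 623 CPM at 0 h, 1777 and 1847 CPM at 24 h and 2234 and 2289 CPM at 48 h. The gain came mostly in the first 24 h, in contrast to HMOX1: 2.87-fold by 24 h (1.52 ± 0.03, adjusted p = 3.32e-39), 3.58-fold by 48 h (1.84 ± 0.03, adjusted p = 4.77e-43) and 0.32 ± 0.03 between them (adjusted p = 3.24e-14). TFRC is the member whose 3′UTR held 4 matches to the iron response element pattern searched here, and their part in this rise was not tested.

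The genes of iron storage and export, whose 5′UTR held 1 such match each, moved little and not in 1 direction. FTH1 (chr11:61727190-61735106) had 161 and 162 CPM at the start and rose, with 191 and 194 CPM after 24 h and 204 and 200 CPM after 48 h (log2 fold change 0.32 ± 0.03 at 48 h, adjusted p = 4.48e-13). FTL (chr19:49468566-49470136) had 538 and 549 CPM at the start and fell, with 427 and 452 CPM after 24 h and 448 and 454 CPM after 48 h (-0.27 ± 0.03 at 48 h, adjusted p = 1.31e-11). The 2 ferritin chains thus moved in opposite directions at both times, without overlap of treated and 0 h libraries. Of the FTH1 transcript 73.2% lies opposite BEST1, a chloride channel gene whose level was 1.13 CPM at 0 h and 5.01 CPM at 24 h, and the strand setting of the counting is not given, so reads of the pair cannot be told apart. That level is far under FTH1's own, but does not show whether shared reads were left out. Counts on processed pseudogenes of FTH1 and FTL were at most 0.992% of the parent's. Adding them could change little, and no FTH1 or FTL value turned. Reads without a unique alignment, 4.98% to 5.96% in these 6 libraries, are not in the gene counts. How many of them came from the ferritin genes is not known. SLC40A1 (chr2:190425316-190448484) was at 2.29 and 2.39 CPM, then 1.897 and 1.43 CPM, then 2.58 and 1.94 CPM. It was called lower at 24 h (-0.49 ± 0.19, adjusted p = 0.0272), but not with DESeq2 (adjusted p = 0.114) nor without 24 h replicate 2 (-0.30, adjusted p = 0.279) or either 0 h replicate (adjusted p = 0.0658 and 0.113). At 48 h it did not pass (-0.03, 95% interval -0.39 to 0.32).

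The other NRF2 targets did not follow HMOX1. NQO1 (chr16:69740899-69760571) was at 19.6 and 19.3 CPM at 0 h, 19.6 and 20.6 CPM at 24 h and 22.3 and 22.9 CPM at 48 h, a difference of 0.05 ± 0.06 at 24 h that did not pass and a rise of 0.22 ± 0.06 at 48 h (adjusted p = 0.00125). GCLM (chr1:94350755-94375012) was at 15.6 and 14.2 CPM, 13.03 and 13.2 CPM, then 19.1 and 18.1 CPM. It was higher at 48 h by 0.32 ± 0.07 (adjusted p = 4.61e-05), and its lower level at 24 h (-0.18 ± 0.07, adjusted p = 0.0277) was lost under 8 of 14 alternatives, among them those without 0 h replicate 1 (adjusted p = 0.302) and without either 24 h replicate (adjusted p = 0.1003 and 0.0630). GCLC (chr6:53362139-53481768) stayed between 47.3 and 52.9 CPM in all 6 libraries and passed at neither time against 0 h, although its 48 h value of 0.07 ± 0.04 was called under library totals (0.12) and upper quartiles (0.18). TXNRD1 (chr12:104609557-104744085) was at 439 and 453 CPM at 0 h, 400 and 407 CPM at 24 h and 379 and 385 CPM at 48 h, and was lower at both times (-0.22 ± 0.03 at 48 h, adjusted p = 9.72e-10). Between 24 h and 48 h 7 members were higher and 1 lower (25.9% and 28.0% of all genes), and GCLM gave the second largest difference after HMOX1, 0.50 ± 0.07 (adjusted p = 6.69e-09). The count fell from 8 to 5 with DESeq2, without 24 h replicate 2 and without 48 h replicate 1, among NQO1, TXNRD1, FTH1 and SLC40A1, whose differences between these times were lost under some of them.

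**Figure D1:**
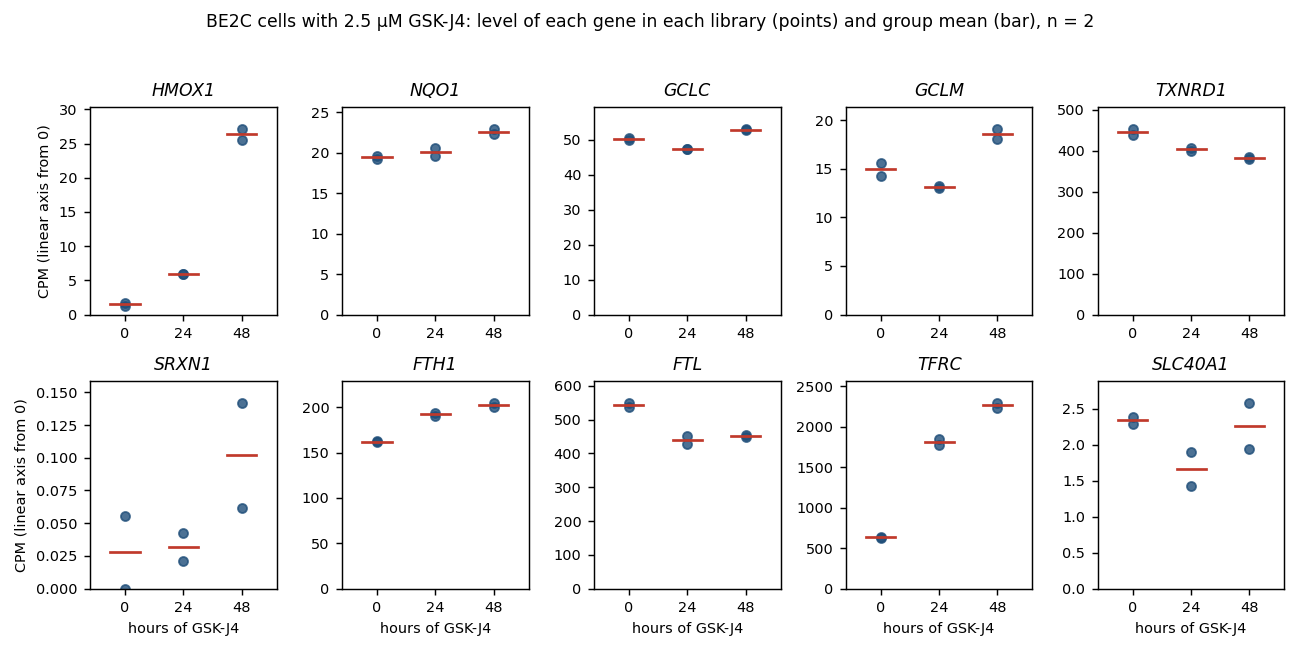
Level of each of the 10 genes in BE2C cells after 0, 24 and 48 h of 2.5 µM GSK-J4, in CPM on linear axes from 0, with each library as a point and the mean of the 2 libraries as a bar. HMOX1 climbs from under 2 to over 25 CPM and TFRC from about 630 to 2289 CPM, while NQO1, GCLC, GCLM and TXNRD1 change by at most 0.32 on the log2 scale against 0 h, and SRXN1 is near 0 throughout.

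The wider pathway did not rise as a whole. Of 24 tested other NRF2 targets 5 were higher and 15 lower at 24 h (median log2 fold change -0.17, all genes 0.01), and 6 were higher and 14 lower at 48 h (median -0.16, all genes 0.05). Of all genes 27.3% were called higher and 28.0% lower at 24 h, and 37.1% and 34.4% at 48 h. SLC7A11, the cystine importer and also a known target of ATF4, had the largest change of the pathway lists, from 13.9 ± 1.5 CPM (SD, n = 2) at 0 h up to 162 ± 3.7 CPM after 24 h and 174 ± 5.4 CPM after 48 h (log2 fold change 3.54 and 3.64). At the other end stood the glutathione transferase GSTA4 (-0.78 and -1.12), PIR (-0.77 and -1.11) and, at 48 h, transaldolase TALDO1 (-1.05). AKR1C3 had 14.1 CPM before the compound, 10.05 CPM after 24 h (log2 fold change -0.48) and 16.6 CPM after 48 h, higher by 0.72 between 24 h and 48 h. Among 10 regulators of NRF2, 5 were higher and 3 lower at both times, led at 48 h by the small MAF gene MAFF (1.83 ± 0.14), which went from 1.88 to 6.71 CPM.

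Among 5 tested iron uptake genes other than TFRC, 2 were higher and 3 lower at 24 h and 1 was higher and 4 lower at 48 h, with medians of -0.49 and -0.46, and TFR2, the second transferrin receptor, was lower at 24 h (-0.73 ± 0.23, at a mean of 1.37 CPM). HAMP, which encodes the iron hormone hepcidin, rose from 0.987 to 3.82 CPM at 24 h (1.95 ± 0.19) and stood at 3.34 CPM at 48 h. The haem genes split: ALAS1, the first enzyme of haem synthesis (1.16), and SLC48A1, a haem transporter (1.41), were higher at 24 h, SLC48A1 came down again by 0.90 between 24 h and 48 h, and UROD, a later enzyme of the pathway, was lower at both times (-0.71 and -1.21). SLC25A37, which carries iron into mitochondria, was higher by 1.24 at 48 h, and the iron chaperone PCBP2 by 0.89 between 24 h and 48 h. Lists of other stress responses moved more uniformly: at both times all 8 hypoxia response genes (medians 1.82 and 3.32), all 7 metal response genes, which are 6 metallothioneins and the zinc exporter SLC30A1 (medians 4.85 and 4.60), and all 7 ATF4 targets (medians 2.22 and 1.77) were higher, while of 5 heat shock genes 1 was higher and 2 lower at 24 h and 2 higher and 1 lower at 48 h. Between 24 h and 48 h, when HMOX1 and TFRC were still rising, all 8 hypoxia genes rose further (median 1.16), all 7 ATF4 targets fell (median -0.40), and of the metal response genes 1 was higher and 4 lower (median -0.28), and of the heat shock genes 3 were higher and 1 lower (median 0.38). These lists were chosen with earlier results of these data known, so how uniformly they moved is a description and no independent test. The part of these lists in the rise of HMOX1 and TFRC was not tested.

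In the siRNA experiment the 3 siRNAs, with 1 library each, were tested as a group against siCtrl. No member, and no gene, passed: 0.0% of 17472 genes were called in either direction. Of all genes 1615 had an unadjusted p under 0.05, 0 were called with limma-voom and 157 with DESeq2, none of them a member. The fitted coefficient of variation between libraries was 0.35, beside 0.0219 for GSK-J4 and 0.0523 for palbociclib. The lack of calls therefore does not show that levels were unchanged. The siCtrl libraries had 6.47 and 8.76 CPM of KDM6B itself, the gene the siRNAs are named for, and those labelled N1, N2 and N33 had 8.99, 7.11 and 8.26 CPM. The RNA of KDM6B was thus not below the siCtrl pair in them, and the 3 libraries are named by their labels only. The paper assessed knockdown by western blot, and reports that the loss of colonies went with knockdown efficiency. Protein was not measured here, so these RNA counts do not settle how far KDM6B was depleted. Each siRNA has 1 library, so singly it is described beside the siCtrl pair with no test.

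For NQO1 the siCtrl pair gave 28.7 and 28.6 CPM, the N1 library 155 CPM, N2 22.2 CPM and N33 24.1 CPM. The N1 library alone was 5.42 times the siCtrl mean, and without it the pooled difference turned from 1.23 ± 0.89 to -0.30. Pooled differences take the 3 siRNAs as a group, so their SE and intervals include the spread between siRNAs. For TXNRD1 the siCtrl pair gave 411 and 381 CPM, N1 563 CPM and N33 365 CPM, but N2 67.7 CPM, so that the siCtrl mean was 5.85 times the N2 level. The pooled difference was -0.25 (95% interval -2.03 to 1.52) and 0.24 without N2. GCLM was lower in each of the 3 libraries than in siCtrl (30.8 and 29.3 CPM), at 28.5, 15.1 and 21.3 CPM, and the pooled difference of -0.48 (95% interval -1.22 to 0.27) did not pass. GCLC lay above siCtrl (53.7 and 51.3 CPM) in each, at 66.9, 55.8 and 66.2 CPM. HMOX1 had 6.92 and 7.46 CPM with siCtrl and lay above that pair in no library but N1 (8.87 CPM), while N2 and N33 lay below it (4.03 and 4.25 CPM). The siCtrl level lay beside 1.77 and 1.27 CPM in BE2C cells at 0 h of GSK-J4, which came from another experiment, and the 2 were not compared.

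Of the iron genes, FTL had 574 and 563 CPM with siCtrl, then 922, 514 and 345 CPM with N1, N2 and N33. FTH1 had 216 and 255 CPM with siCtrl, then 302, 184 and 233 CPM, and TFRC 807 and 760 CPM, then 936, 643 and 637 CPM. Both ferritin chains and TFRC were thus above the siCtrl pair in N1, and FTL and TFRC below it in N2 and N33. SLC40A1 lay above the siCtrl pair (6.02 and 6.496 CPM) in N33, at 10.3 CPM, and below it in N1 and N2, at 5.91 and 5.01 CPM. N1 was the highest of the 5 libraries for HMOX1, NQO1, GCLC, TXNRD1, FTH1, FTL and TFRC. The summed neuroblast markers also differed between these libraries, from 2881 and 3023 CPM in siCtrl to 2801, 2416 and 1539 CPM in N1, N2 and N33.

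**Figure D2:**
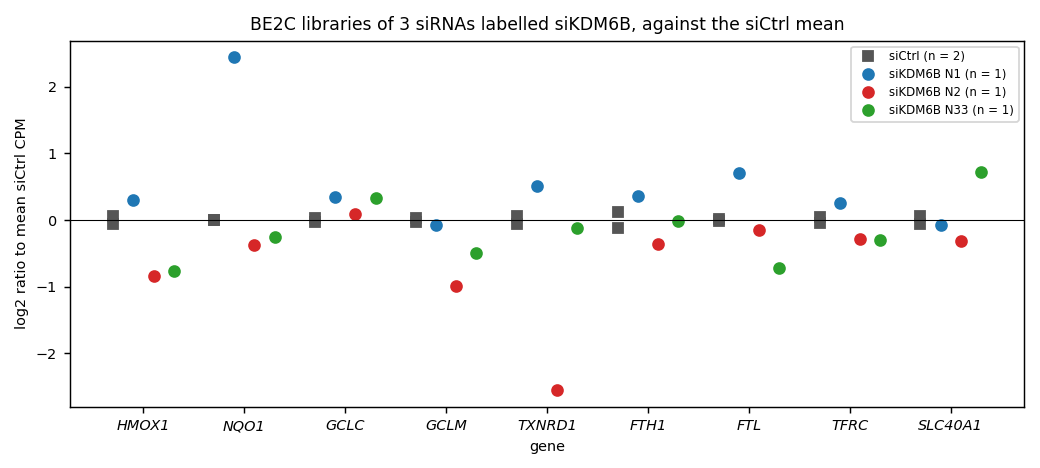
log2 ratio of each of 9 genes to the mean siCtrl level, for the 2 siCtrl libraries (squares) and the single library of each siRNA labelled siKDM6B (circles). NQO1 stands at 2.44 in N1 and TXNRD1 at -2.55 in N2, while the other siRNAs leave the same genes within 0.51 of siCtrl.

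Untreated, the 4 lines of the palbociclib experiment differed in 9 of the 10 members, all but SRXN1 (adjusted p = 0.723), where 91.2% of all 22133 genes tested differed. NB1691 had the highest HMOX1, NQO1, GCLM, FTH1, FTL and TFRC. Its HMOX1, at 30 and 28.6 CPM, was 3.45 ± 0.12 on the log2 scale above CHLA20 (2.40 and 3.01 CPM, adjusted p = 3.77e-15). CHLA15 was at 1.69 and 2.04 CPM and NB1643, the lowest, at 0.887 and 0.633 CPM, which gave a span of 5.23 on the log2 scale over the lines. HMOX1 was the member that varied most between lines, and of the 9 that passed TXNRD1 varied least, with a span of 0.33.

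NQO1 and GCLM were also highest in NB1691, with smaller spans. NQO1 was at 41.7 CPM in both NB1691 controls, 12.4 to 14.9 CPM in CHLA15 and CHLA20, whose difference did not pass (adjusted p = 0.999), and 8.17 and 8.59 CPM in NB1643. GCLM was at 53.8 and 53.5 CPM in NB1691, 19.5 and 25.7 CPM in NB1643, and 17.3 and 17.2 CPM in CHLA20 against 15.3 and 13.8 CPM in CHLA15, a difference that did not pass (adjusted p = 0.112). GCLC was highest in NB1643, at 68.1 and 70.4 CPM, and between 45.7 and 51.1 CPM in the other lines. TXNRD1 was lowest there, at 268 and 287 CPM, and between 320 and 357 CPM in the others.

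FTH1 reached 1630 and 1714 CPM in NB1691, 727 and 704 CPM in CHLA15, 647 and 683 CPM in CHLA20 and 320 and 329 CPM in NB1643. FTL followed the same order at its ends, from 1040 CPM in both NB1691 controls to 489 and 519 CPM in NB1643. TFRC was also highest in NB1691 (402 and 410 CPM), then NB1643 (236 CPM in both) and lowest in CHLA15 (133 and 147 CPM) and CHLA20 (125 and 136 CPM), whose difference did not pass (adjusted p = 0.289). SLC40A1 was between 5.71 and 8.73 CPM, highest in NB1643 and lowest in NB1691. Beside these values for NB1691 stand its 6 fibroblast markers, summed to at least 16457 CPM, and KRT5, an epithelial keratin, at 84.5 and 86.8 CPM in the controls and at or under 0.0205 CPM in the other lines, and their part was not tested.

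NQO1 was lower with palbociclib in all 4 lines, and other members changed in some. In CHLA15 0 members were higher and 2 lower, where 14.2% and 15.6% of all genes were, and in CHLA20 0 were higher and 4 lower, against 13.7% and 15.9%. In NB1643 1 was higher and 5 were lower, against 20.3% and 19.7%, and in NB1691 3 were higher and 3 lower, against 17.4% and 15.5%.

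NQO1 went from 12.4 and 14.9 CPM to 7.24 and 8.10 CPM in CHLA15, from 12.6 and 14.5 CPM to 6.68 and 7.60 CPM in CHLA20, from 8.17 and 8.59 CPM to 5.25 and 5.51 CPM in NB1643 and from 41.7 CPM in both controls to 27.1 and 24.4 CPM in NB1691. Control and treated libraries did not overlap in any line. How many of all genes did so, or were called lower in every line, was not counted. The log2 fold changes were -0.83 ± 0.10 in CHLA15 (adjusted p = 4.80e-06), -0.92 ± 0.10 in CHLA20 (adjusted p = 1.34e-06), -0.64 ± 0.11 in NB1643 (adjusted p = 0.000130) and -0.70 ± 0.09 in NB1691 (adjusted p = 5.86e-06). NQO1 was called lower under all 13 alternatives in each line, and a difference of the change between lines did not pass (adjusted p = 0.365), with a span of 0.28 over the lines. Lines given 0.3 µM and 3 µM differ in dose and line together.

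GCLM was lower in 3 lines, by the log2 fold changes -0.32 ± 0.10 in CHLA20 (adjusted p = 0.0169), -0.69 ± 0.10 in NB1643 (adjusted p = 1.29e-05) and -0.76 ± 0.09 in NB1691 (adjusted p = 2.22e-06), where it went from 53.8 and 53.5 CPM to 30.7 and 32.7 CPM. In CHLA15 it was 15.3 and 13.8 CPM in the controls and 14.1 and 15.1 CPM with palbociclib, which overlap. The CHLA20 call was lost without palbociclib replicate 2 (-0.31, adjusted p = 0.0836). Its catalytic partner GCLC was lower in NB1643 only, from 68.1 and 70.4 CPM to 57.5 and 57.9 CPM (-0.26 ± 0.05, adjusted p = 0.000539), and the test of the difference between lines passed for both subunits (adjusted p = 0.000485 for GCLM and 0.00278 for GCLC).

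HMOX1 was lower in CHLA20, from 2.40 and 3.01 CPM to 1.40 and 1.26 CPM (-1.01 ± 0.17, adjusted p = 0.000112), and in NB1691, from 30 and 28.6 CPM to 19.8 and 18.2 CPM (-0.62 ± 0.10, adjusted p = 9.35e-05). In CHLA15 (-0.14, 95% interval -0.49 to 0.21) and NB1643 (-0.16, 95% interval -0.67 to 0.35) it did not pass, and in NB1643 its counts were at most 65 a library. The lines differed overall (adjusted p = 0.0232), while no pair of lines passed (lowest adjusted p = 0.0533, NB1643 against CHLA20).

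TXNRD1 moved in opposite directions. It fell in NB1643 from 268 and 287 CPM to 181 and 185 CPM (-0.60 ± 0.05, adjusted p = 2.86e-08) and in CHLA20 by the smaller -0.21 ± 0.05 (adjusted p = 0.00413), rose in NB1691 from 344 and 355 CPM to 435 and 415 CPM (0.28 ± 0.05, adjusted p = 0.000300), and did not pass in CHLA15 (0.01, 95% interval -0.09 to 0.12). The change in NB1691 differed from that in NB1643 by 0.88 ± 0.07 (adjusted p = 8.62e-08), the widest gap between lines of any member. SRXN1, with 11 to 35 counts a library, passed in no line.

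Both ferritin chains rose in NB1691 with palbociclib, FTL from 1040 CPM in both controls to 1454 and 1364 CPM (0.44 ± 0.06, adjusted p = 1.96e-05) and FTH1 from 1630 and 1714 CPM to 1980 and 1985 CPM (0.25 ± 0.05, adjusted p = 0.000567). In CHLA15 FTH1 fell from 727 and 704 CPM to 641 and 609 CPM (-0.19 ± 0.05, adjusted p = 0.00446), a call lost without palbociclib replicate 2 (adjusted p = 0.0511). In CHLA20 FTH1 went from 647 and 683 CPM to 600 and 620 CPM and did not pass (-0.13 ± 0.05, adjusted p = 0.0588), although it was called lower under 7 of 13 alternatives, DESeq2 and limma-voom among them (adjusted p over all 13 from 0.0102 to 0.204). In NB1643 FTL was higher by 0.17 ± 0.06 (adjusted p = 0.0319), which was lost without palbociclib replicate 1 (0.12, adjusted p = 0.272) or control replicate 1 (0.13, adjusted p = 0.128). TFRC was lower in NB1643, from 236 CPM in both controls to 170 and 177 CPM (-0.44 ± 0.06, adjusted p = 5.17e-06), and did not pass in the other lines (0.04 in CHLA15, 0.00 in CHLA20 and -0.06 in NB1691). SLC40A1 passed in none, at -0.15 to -0.03. In the test of difference between lines 7 of the 10 members passed, where 38.0% of all genes did: HMOX1, GCLC, GCLM, TXNRD1, FTH1, FTL and TFRC.

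**Figure D3:**
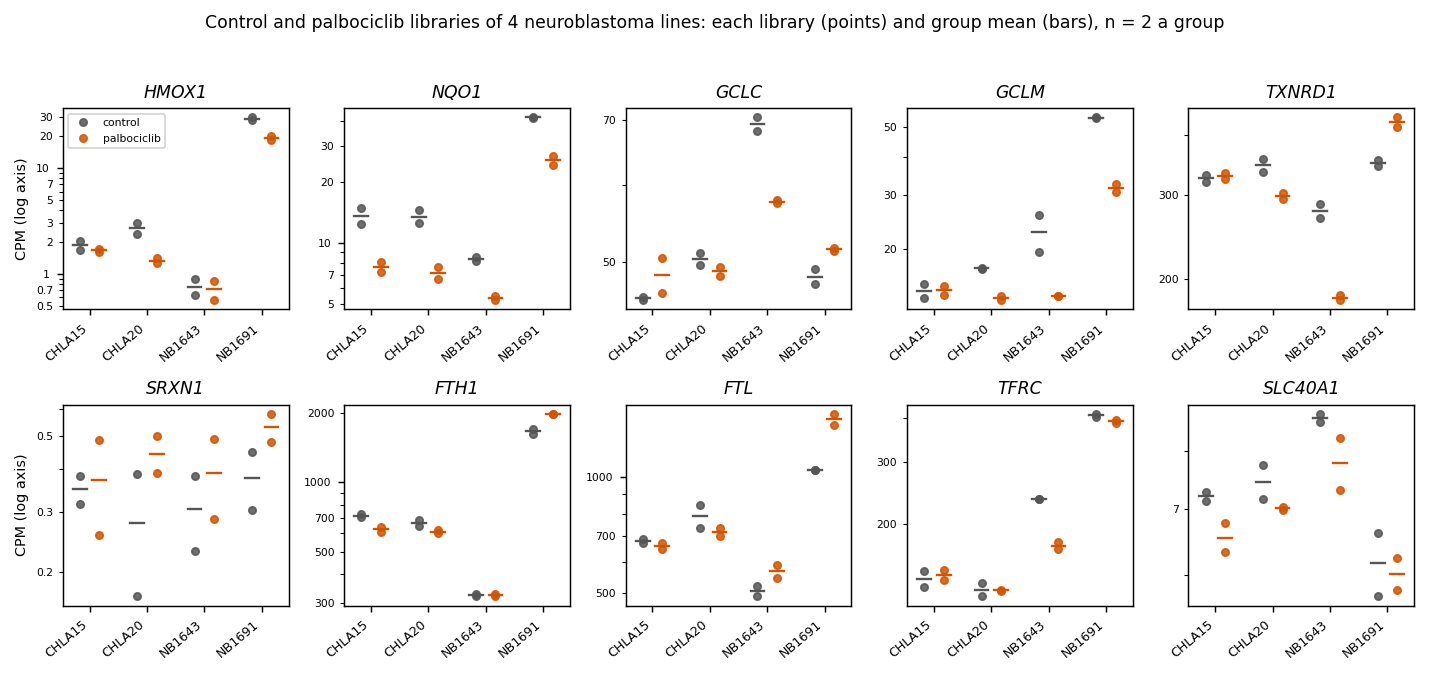
Level of each gene in the control (grey) and palbociclib (orange) libraries of CHLA15, CHLA20, NB1643 and NB1691, in CPM on log axes that differ between panels, with each library as a point and the mean of 2 as a bar. NQO1 is lower with palbociclib in all 4 lines, TXNRD1 falls in NB1643 and rises in NB1691, and NB1691 has the highest HMOX1, NQO1, GCLM, FTH1, FTL and TFRC.

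**Figure D4:**
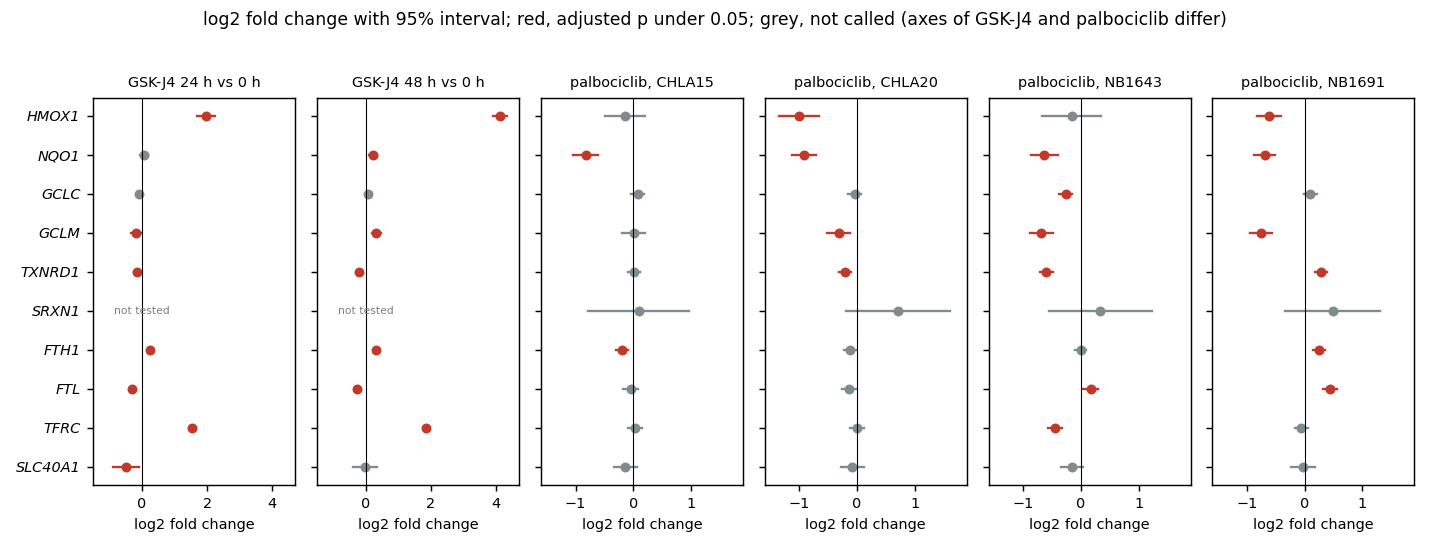
log2 fold change of each gene with its 95% interval, for GSK-J4 against 0 h in BE2C and for palbociclib against control in the 4 lines, red where the adjusted p was under 0.05, with wider axes for GSK-J4. HMOX1 reaches 4.11 and TFRC 1.84 at 48 h of GSK-J4, and NQO1 is the only gene in red in all 4 palbociclib panels.

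Of 27 tested other NRF2 targets, palbociclib left 6 higher and 6 lower in CHLA15, 4 and 9 in CHLA20, 7 and 9 in NB1643 and 6 and 9 in NB1691, with medians between -0.12 and 0.00. Of all genes 14.2% were called higher and 15.6% lower in CHLA15, and 13.7% and 15.9% in CHLA20. The shares were 20.3% and 19.7% in NB1643 and 17.4% and 15.5% in NB1691. SLC7A11 was the largest fall in CHLA15 (-3.49 ± 0.14, from 42.9 to 3.82 CPM) and CHLA20 (-4.26 ± 0.14, from 60.7 to 3.17 CPM), and was also lower in NB1643 (-0.62). The aldo-keto reductases AKR1C1 and AKR1C2 were higher in CHLA15 (1.07 and 1.52) and CHLA20 (0.92 and 1.13), AKR1C3 was higher in CHLA15 (0.82), and AKR1C2 was higher in NB1691 (0.61). These reductases are near copies of each other, and reads without a unique alignment were not counted on genes, so their counts may be too low. MAFF was higher in CHLA15 (1.09), the autophagy receptor SQSTM1 (0.54) and EPHX1 (0.57) in NB1643, while PIR fell in NB1643 (-1.15) and NB1691 (-0.61), PRDX1 in NB1643 (-0.50) and the transferase MGST1 in CHLA15 (-0.97) and CHLA20 (-1.40). ABCC3, called higher in NB1643, was at 0 in its controls and at a mean of 0.0538 CPM with palbociclib, near the level of 3 counts, and no fold is given.

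Among 6 iron uptake genes 3, 3, 4 and 1 were lower in CHLA15, CHLA20, NB1643 and NB1691, and 1, 0, 1 and 1 higher. The shares of all genes called in each line, given above, are the background for these lists too. The metal ion importer SLC39A8 fell in CHLA15 (-0.75), CHLA20 (-1.08) and NB1643 (-0.78), and in NB1691 its relative SLC39A14 fell (-0.63) while the iron reductase CYBRD1 rose (0.76). Of the haem genes, BLVRB, a biliverdin reductase, fell in CHLA15 (-1.004) and CHLA20 (-1.45), where it was at 0.597 and 1.504 CPM in the controls, and the haem transporter SLC48A1 fell in NB1691 (-0.60). All 7 ATF4 targets were lower in CHLA15 and CHLA20 (medians -1.22 and -1.92), 1 was higher and 3 lower in NB1643, and 6 were higher in NB1691 (median 0.39). Of 8 hypoxia genes 1, 2, 1 and 3 were higher and 2, 4, 4 and 1 lower in the 4 lines in that order. Of 5 tested metal response genes at most 1 passed in either direction in any line.

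**Figure D5:**
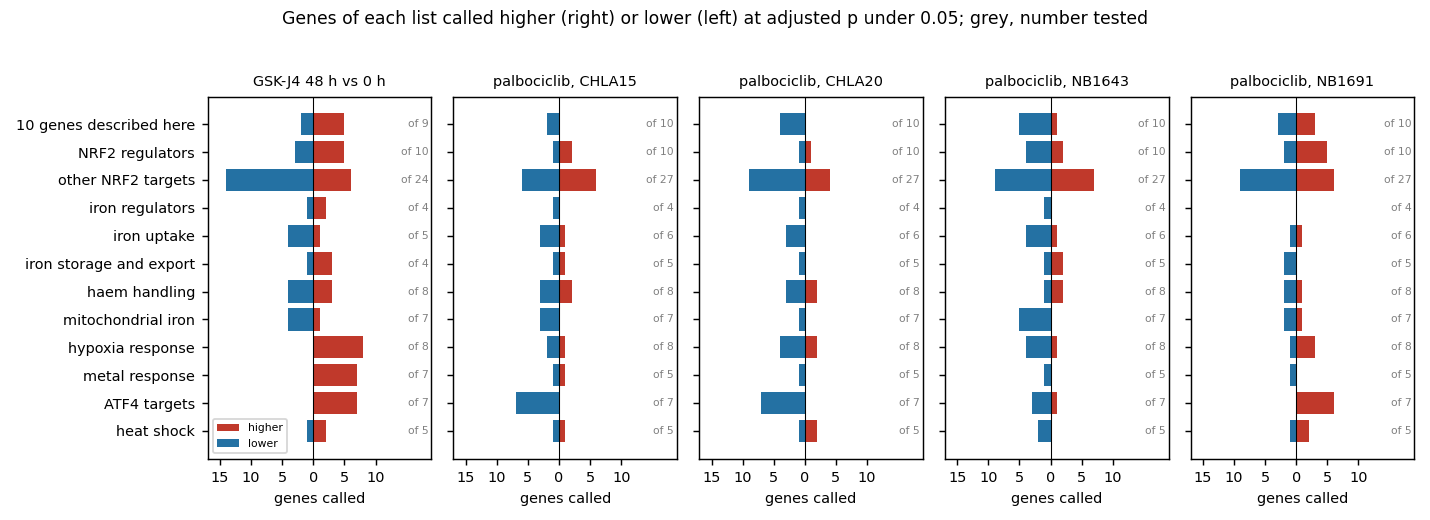
Number of genes of each list called higher (red, to the right) or lower (blue, to the left) at 48 h of GSK-J4 and with palbociclib in each line, with the number tested in grey. The hypoxia, metal and ATF4 lists lie wholly to the right with GSK-J4, while other NRF2 targets lie mostly to the left, with 14 lower and 6 higher. The lists were chosen with earlier results of these data known.

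Over all 27 libraries, in which lines and experiments differ together, the genes most like each member in log2 CPM were sought among 12574 genes of at least 1 CPM on average in both sets of files. They were SAMD5 and IRF1 for HMOX1 (Pearson r = 0.922 and 0.92), JADE3 and CRISPLD1 for NQO1 (0.897 and 0.893), CPEB3 and ACOT2 for GCLC (0.831 and 0.816), PPFIBP1 and CLIC1 for GCLM (0.898 and 0.894), and EI24 and ACTL6A for TXNRD1 (0.868 and 0.816). For the iron genes they were LASP1 and PPARD for FTH1 (0.985 and 0.984), ARHGEF19 and TMEM248 for FTL (0.941 and 0.931), EGLN3 and KCNQ1OT1 for TFRC (0.977 and 0.965), and PPP3CB and SLC39A6 for SLC40A1 (0.949 and 0.918). EGLN3, an oxygen-sensing hydroxylase, is on the hypoxia list. Between members r was 0.875 for FTH1 with FTL, 0.753 for HMOX1 with NQO1 and -0.753 for TFRC with SLC40A1. The correlations are descriptions, since libraries of a line share its differences from the other lines.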

How the data were processed

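Total RNA of human cell lines had been sequenced as paired ends of 100 bases by the authors, aligned to GRCh37 (STAR 2.5.3a is named in the submitters' notes) and counted per gene with HTSeq, and the deposited values are whole-number counts per gene symbol without normalization. The methods name a mouse annotation, whereas the symbols are human, and the strand setting is not given in the sources used here. The 38 files were reduced to 27 libraries, as the 22 BE2C files were summed in pairs. Files taken as 1 library, the pairs of N1, N2 and N33 among them, differed by a chi-square of 1.48 to 1.65 per degree of freedom. Replicates differed by 1.89 to 24.3. The BE2C and palbociclib files share 49070 symbols of 50652 and 50778, so the experiments were fitted apart. The lines of reads on no gene held 5.10% to 16.8% of reads and were left out.

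Counts were tested with edgeR (version 4.0.16, run under R 4.3.3; scaling by TMM, genes kept by filterByExpr, quasi-likelihood F test, Benjamini-Hochberg threshold 0.05 over all genes tested). A fit held the 6 GSK-J4 libraries, another the 5 siRNA libraries with the 3 siRNAs as a group, and the last the 16 palbociclib libraries, with line by treatment tests. CPM are scaled by TMM factors, and 3 counts are at most 0.0829 CPM. CPM per kilobase use the main transcript of GENCODE 44 on GRCh37. Alternatives used DESeq2 1.42.0, limma-voom (limma 3.58.1), other scalings and filters, each file as a sample, each replicate left out and a replicate block. The code was tested on simulated counts. Motifs were found with pysam 0.24.0, tables made with pandas 2.3.3 and numpy 2.4.6 and figures with matplotlib 3.10.9.

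The members and gene lists were chosen with earlier results of these data known. Other genes named are up to 4 highest and 4 lowest log2 fold changes of the pathway lists per comparison (adjusted p under 0.05, at least 0.5 in size, mean of at least 1 CPM), and the 2 genes most like each member. Of listed symbols, 29054 of 52360 matched a single gene model.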

Additional observations from a re-analysis of the deposited data

Results flagged for a closer look

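The response to palbociclib differed between the 4 lines for 7 of the 10 members, by the test of the line by treatment interaction with edgeR. The same test passed for 38.0% of all 22133 genes tested. The highest minus the lowest log2 fold change over the lines was 0.88 for TXNRD1 (adjusted p = 1.74e-07), 0.87 for HMOX1 (adjusted p = 0.0232), 0.77 for GCLM (adjusted p = 0.000485), 0.57 for FTL (adjusted p = 0.000161), 0.48 for TFRC (adjusted p = 0.000373), 0.44 for FTH1 (adjusted p = 0.000216) and 0.36 for GCLC (adjusted p = 0.00278). For TXNRD1 and FTH1 the called changes had opposite directions in different lines. The dose differed between the 2 pairs of lines, so dose and line cannot be told apart between them.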

How the results depend on the processing

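Of the members' log2 fold changes recomputed under the alternatives, 934 kept their direction and their side of the threshold, 35 lost the call, 16 gained it and 39 changed sign, all of these for members not called in the comparison. HMOX1 and TFRC after GSK-J4 and NQO1 after palbociclib kept their calls throughout. Asking also for a log2 fold change above 0.5 in size left 2 of 9 tested members in each GSK-J4 comparison. Of all 17734 genes it left 3855 at 24 h, 7487 at 48 h and 3111 between 24 h and 48 h. It left 1 of 10 members in CHLA15, 2 in CHLA20, 3 in NB1643 and 3 in NB1691. Of all 22133 genes it left 2600, 2659, 4292 and 3033 in these lines. A range of at least 0.5 left 4 members, and 5526 of all genes, in the test between lines. Between 24 h and 48 h DESeq2 called 5 members, and 5 to 6 were called with a replicate left out. In CHLA15 1 to 2 were.

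With upper quartiles SLC40A1 turned to 0.079 at 48 h and 0.011 in NB1691, GCLM to -0.0063 in CHLA15, TFRC to 0.0028 in CHLA20 and FTH1 to 0.051 in NB1643. With library totals SLC40A1 turned to 0.013 at 48 h, and GCLM to -0.029 and TXNRD1 to -0.021 in CHLA15. With at least 10 counts in every library SLC40A1 was 0.018 at 48 h and TFRC 0.0019 in CHLA20. DESeq2 gave 0.020 for FTH1 in NB1643. In the libraries labelled siKDM6B limma-voom gave -0.0016 for FTH1 and -0.058 for FTL, and no filter -0.0081 for FTH1.

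With 1 replicate left out, SLC40A1 at 48 h ranged from -0.27 to 0.14 and FTL between 24 h and 48 h from -0.013 to 0.069. For siKDM6B the ranges were -0.30 to 1.66 for NQO1, -0.86 to 0.24 for TXNRD1, -0.17 to 0.19 for FTH1, -0.40 to 0.34 for FTL, -0.29 to 0.014 for TFRC and -0.19 to 0.38 for SLC40A1. In CHLA15 they were -0.066 to 0.081 for GCLM, -0.018 to 0.041 for TXNRD1, -0.43 to 0.48 for SRXN1 and -0.042 to 0.12 for TFRC. They were -0.083 to 0.044 for TFRC in CHLA20, -0.45 to 0.15 for HMOX1, -0.13 to 0.80 for SRXN1 and -0.022 to 0.013 for FTH1 in NB1643, and -0.14 to 0.075 for SLC40A1 in NB1691. A lone remaining library was assumed to vary like the other groups. The cause of these changes was not tested.

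Replicate numbers did not pair the libraries (correlation of deviations -0.0394 to 0.103). With the replicate block 7, 7 and 8 members were called for the 3 GSK-J4 comparisons and 2, 5, 6 and 6 in CHLA15, CHLA20, NB1643 and NB1691, the added call being FTH1 in CHLA20 (-0.12, adjusted p = 0.0480), which 6 other alternatives also called. For siKDM6B no paired analysis was possible because each siRNA has 1 library. Upper quartiles moved the median of all genes at 48 h from 0.05 to 0.16, and the calls between 24 h and 48 h from 4593 higher and 4958 lower to 5558 and 4007. Library totals moved those in NB1691 from 3847 and 3422 to 2762 and 4929. For siKDM6B, where 0 genes passed, DESeq2 called 157, no filter 84, the fit with the GSK-J4 libraries 690 and each file as a sample 2354.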

Other observations

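SLC7A11, which encodes the cystine importer and was singled out after its values were seen, had its highest siRNA level in another library than NQO1. The siCtrl pair held 16.1 ± 0.75 CPM (SD, n = 2), the single libraries labelled siKDM6B N1 and N2 held 30.8 and 8.98 CPM, and that labelled N33 held 205 CPM, where NQO1 and HMOX1 lay under siCtrl. With palbociclib it went from 42.9 ± 0.73 to 3.82 ± 0.28 CPM (SD, n = 2) in CHLA15 and from 46.4 ± 0.27 to 42.8 ± 0.57 CPM in NB1691, and its change differed between the 4 lines (edgeR interaction test, adjusted p = 2.09e-12).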
